A study of Mus musculus with 6 samples.

Results

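Sox10, Pax3, Tfap2a, Zeb2, Sox5, Foxd3 and Lhx2, 7 transcription factor genes of the melanocyte lineage, were examined for H3K27 acetylation in B16 F10 mouse melanoma cells of low (LP) and high (HP) pigment content. The genes were chosen by name, and every acetylated region that overlapped one of them or the 100 kb on either side was taken. Of 182956 regions in the whole data set, 366 lay in these 7 windows, which together span 2649370 bp of the mm10 genome.

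The data are 4 H3K27ac ChIP-seq libraries, 2 of LP and 2 of HP cells, from day 5 of the progressive pigmentation model, in which B16 F10 cells seeded at 100 cells per cm2 darken as they grow. LP and HP cells were separated from day 5 cells by side scatter, so neither is an unsorted control, and all came from 1 melanoma line. Cells were fixed in formaldehyde for 10 min, at 1% per the labels, while the study's methods give another strength, and IgG immunoprecipitates of unsorted cells served the authors as the background for peak calling. No IgG signal files were analysed here, so the background enters only through the calls. Libraries held 11467942 to 15353176 fragments, and 1 fragment at a summit was worth 0.0651 to 0.0872 scaled units. The labels call them replicates without saying whether the cultures were separate. The p-values then measure only a spread between these samples, pooled over regions as described below.

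H3K27ac marks active promoters and enhancers, and several enhancers close together often lie at genes that define a cell type. Sox10 and Pax3 act together on the Mitf gene, whose product drives pigment enzyme genes. Tfap2a and Zeb2 take part in melanocyte differentiation, Sox5 counteracts Sox10 at some targets, Foxd3 keeps neural crest cells from the pigment fate, and Lhx2 is a LIM homeodomain factor known from hair follicle stem cells and brain.

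Pileup is the number of fragments stacked at a peak's highest base, and scaled pileup is that number per 1000000 fragments of the library. A region is the union of overlapping peaks of the 4 libraries. It has no value in a library without a peak there, which does not make its signal 0. Regions within 3 kb of an annotated start of the gene are called its own promoter and those within 3 kb of another gene's start other promoters. Regions farther away that were called in both replicates of LP or of HP are called distal elements, and at least 3 of them with neighbours no more than 12500 bp apart form a cluster. Distances run from the 5′ end of the gene, positive towards and past its 3′ end.

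All 6 melanocyte genes on the list (Tyr, Tyrp1, Dct, Pmel, Mlana and Mitf) had a promoter region called in all 4 libraries. None of 4 keratinocyte and none of 4 immune genes had one called in both replicates of LP or HP, a looser measure. By it 1 of 4 fibroblast genes (Col1a1) and 1 of 3 endothelial genes (Pecam1) had one. The Pecam1 region was called in all 4 libraries (1.13 and 1.24 in LP, 2.00 and 2.39 in HP), and the Col1a1 region was not. At Tyr the values were 0.872 and 0.847 in LP, against 2.09 and 1.40 in HP. The part of other cell types in the values below was not tested.

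Sox10 and Pax3 carried dense arrays of distal elements, Zeb2 and Sox5 1 intronic cluster each, Tfap2a 2 elements and no cluster, and Foxd3 and Lhx2 1 element each and no cluster. The 52 distal elements split into 18 at Pax3, 14 at Sox5, 10 at Sox10, 6 at Zeb2, 2 at Tfap2a and 1 each at Foxd3 and Lhx2. Corrected for window length, Pax3 had 6.08 and Sox10 4.75 elements per 100 kb, the 99.9 and 99.5 percentiles of 21938 protein-coding genes, whose median was 0.374. Zeb2 followed at 1.80 (percentile 89.7), Sox5 at 1.21 (81.0), Tfap2a at 0.897 (72.1), Foxd3 at 0.494 (64.9) and Lhx2 at 0.434 (53.6). The Sox5 gene is 953553 bp long. Since an element had to be called in both replicates of LP or of HP, the libraries that hold it are part of its definition. Over all 10940 distal elements 30.1% and 49.9% were called in the LP replicates, beside 95.6% and 96.3% in the HP replicates, and the calls given below for the elements of a cluster describe how they were chosen and compare nothing.

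The sequences around the summits of the elements on which the results turn are shown first, 300 bases each, from the plus strand of the mm10 reference. They are the 2 Pax3 intronic elements that passed the test between HP and LP, the highest Sox10 distal element and a second one that holds several factor motifs, and the highest distal element of Tfap2a, Zeb2 and Lhx2. For distal elements, highest means the largest mean scaled pileup in HP. Where a gene had several, HP over LP at the highest is thus partly set by the choice. Capitals mark letters that match a motif searched, on either strand.

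Sox10 -28.4 kb, chr15:79193528-79193827: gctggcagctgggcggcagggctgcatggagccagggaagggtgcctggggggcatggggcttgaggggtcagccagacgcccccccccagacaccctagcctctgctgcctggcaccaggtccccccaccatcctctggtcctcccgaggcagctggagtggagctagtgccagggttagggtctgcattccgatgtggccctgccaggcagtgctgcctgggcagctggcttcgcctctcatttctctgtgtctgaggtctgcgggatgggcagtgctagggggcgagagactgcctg
Sox10 -59.5 kb, chr15:79224567-79224866: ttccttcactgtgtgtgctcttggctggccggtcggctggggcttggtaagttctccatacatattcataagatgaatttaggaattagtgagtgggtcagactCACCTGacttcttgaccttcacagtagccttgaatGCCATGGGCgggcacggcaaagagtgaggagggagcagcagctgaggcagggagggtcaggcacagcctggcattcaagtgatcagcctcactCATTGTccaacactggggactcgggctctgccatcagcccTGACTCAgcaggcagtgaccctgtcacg
Pax3 +15.1 kb, chr1:78181874-78182173: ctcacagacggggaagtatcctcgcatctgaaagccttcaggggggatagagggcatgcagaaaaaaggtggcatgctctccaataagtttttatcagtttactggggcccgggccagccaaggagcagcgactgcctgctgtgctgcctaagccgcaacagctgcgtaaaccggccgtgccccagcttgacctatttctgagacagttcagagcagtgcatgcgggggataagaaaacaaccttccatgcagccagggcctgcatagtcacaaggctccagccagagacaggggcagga
Pax3 +37.6 kb, chr1:78159397-78159696: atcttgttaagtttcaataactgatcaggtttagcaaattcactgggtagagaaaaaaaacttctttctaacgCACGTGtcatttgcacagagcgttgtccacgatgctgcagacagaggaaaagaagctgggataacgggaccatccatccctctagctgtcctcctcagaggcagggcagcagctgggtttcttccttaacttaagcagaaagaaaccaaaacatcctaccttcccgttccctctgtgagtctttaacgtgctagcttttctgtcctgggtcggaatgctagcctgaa
Tfap2a +88.4 kb, chr13:40649786-40650085: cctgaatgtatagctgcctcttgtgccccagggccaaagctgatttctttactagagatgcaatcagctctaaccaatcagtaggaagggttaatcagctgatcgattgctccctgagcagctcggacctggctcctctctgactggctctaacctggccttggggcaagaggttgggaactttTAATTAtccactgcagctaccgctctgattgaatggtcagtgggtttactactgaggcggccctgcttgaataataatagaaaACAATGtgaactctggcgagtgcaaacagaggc
Zeb2 +14.5 kb, chr2:45102726-45103025: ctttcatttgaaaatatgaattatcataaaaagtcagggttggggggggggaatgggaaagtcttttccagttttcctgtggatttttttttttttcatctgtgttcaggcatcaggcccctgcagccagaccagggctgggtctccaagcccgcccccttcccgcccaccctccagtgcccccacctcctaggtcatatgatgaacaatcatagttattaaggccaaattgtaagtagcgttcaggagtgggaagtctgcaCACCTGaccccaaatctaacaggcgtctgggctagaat
Lhx2 +92.7 kb, chr2:38431799-38432098: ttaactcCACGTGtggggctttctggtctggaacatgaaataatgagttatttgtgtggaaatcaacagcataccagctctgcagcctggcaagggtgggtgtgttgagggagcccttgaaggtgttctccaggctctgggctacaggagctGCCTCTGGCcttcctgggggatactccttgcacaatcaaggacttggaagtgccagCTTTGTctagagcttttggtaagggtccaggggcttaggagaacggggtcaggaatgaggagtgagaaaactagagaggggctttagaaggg

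The motifs searched were ACAAAG and ACAATG for SOX factors, GCCNNNGGC for TFAP2, CATGTG and CACGTG for the E-boxes that MITF binds, CAGGTG for ZEB factors, GTCACGC for PAX paired domains, TAATTA for LIM homeodomains, TGTTTAC for FOX factors and TGANTCA for AP-1. Each was searched on both strands, and none of these motifs contains another, although their matches may overlap in a sequence. Sox10 -59.5 kb held the ZEB motif as CACCTG, TFAP2 as GCCATGGGC, SOX as CATTGT and AP-1 as TGACTCA. Pax3 +37.6 kb held CACGTG, whereas Pax3 +15.1 kb and Sox10 -28.4 kb held none of the motifs. Tfap2a +88.4 kb held TAATTA and ACAATG, Zeb2 +14.5 kb held CACCTG, and Lhx2 +92.7 kb held CACGTG, GCCTCTGGC and CTTTGT.

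Among all 52 elements, 18 held a SOX motif (34.6%, against 32.8% of 10922 distal elements of the data set at the same length) and 7 a TFAP2 motif (13.5% against 12.3%). CACGTG was in 8 elements (15.4% against 5.88%), 2 each at Sox10, Pax3 and Sox5 and 1 each at Zeb2 and Lhx2, and the other E-box, CATGTG, in 8 (15.4% against 21.5%). CAGGTG was in 4 (7.69% against 22.3%), TAATTA in 2 (3.85% against 4.73%) and TGANTCA in 5 (9.62% against 10.6%). GTCACGC and TGTTTAC were in 0 of 52, against 0.971% and 4.19%. The median GC content was 48.67% at the 52 elements and 51.33% over all elements. These shares are descriptions of the letters and say nothing of binding.

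At the gene starts the mark was present for 5 of 7 genes in all 4 libraries, at any of their annotated starts, against 46.2% of protein-coding genes. These were Sox10, Pax3, Tfap2a, Zeb2 and Lhx2. Sox5 had its promoter regions in both HP libraries and LP replicate 2, so 6 of 7 were called in both replicates of a population (53.7% of protein-coding genes). Foxd3 had none.

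The range is shown by 3 starts, and the 250 bases before each are printed in the direction of the gene, from the RefSeq promoter table of the same build (GRCm38.p6). Zeb2 is a start with peaks in 4 libraries, Lhx2 the 5′-most start of that gene, with a peak in 1, and Foxd3 a start with a peak in 0. Capitals again mark motifs.

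Zeb2, minus strand, chr2:45117443-45117692: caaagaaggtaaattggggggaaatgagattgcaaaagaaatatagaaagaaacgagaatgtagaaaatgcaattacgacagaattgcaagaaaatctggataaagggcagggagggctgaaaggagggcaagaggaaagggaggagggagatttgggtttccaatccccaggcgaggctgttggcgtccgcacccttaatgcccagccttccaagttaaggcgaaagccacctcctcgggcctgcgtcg
Lhx2, plus strand, chr2:38339031-38339280: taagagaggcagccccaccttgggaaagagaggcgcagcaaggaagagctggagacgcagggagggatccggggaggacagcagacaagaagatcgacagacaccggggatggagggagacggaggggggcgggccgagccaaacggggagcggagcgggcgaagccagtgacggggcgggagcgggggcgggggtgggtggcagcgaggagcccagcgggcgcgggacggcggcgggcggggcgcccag
Foxd3, plus strand, chr4:99656049-99656298: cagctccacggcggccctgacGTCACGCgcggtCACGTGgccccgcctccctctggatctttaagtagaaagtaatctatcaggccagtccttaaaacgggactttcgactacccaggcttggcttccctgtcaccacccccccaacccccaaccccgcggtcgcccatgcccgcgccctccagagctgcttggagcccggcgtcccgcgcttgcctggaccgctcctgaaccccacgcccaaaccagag

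In base content the starts differed. Foxd3 had 21 CpG and 65.6% GC in these 250 bases, and Lhx2 25 CpG and 72.8% GC, against 9 CpG and 49.6% GC for Zeb2 and medians of 6 CpG and 52.4% over 32851 RefSeq promoters. The Foxd3 sequence held GTCACGC and CACGTG, found in 1.78% and 6.02% of those promoters. Zeb2 and Lhx2 held none of the motifs in this window.

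Sox10 (ENSMUSG00000033006.10, chr15:79154908-79165240, minus strand) encodes the SOX factor that specifies melanocytes from the neural crest. Its promoter region, 11110 bp wide at chr15:79158828-79169937, took in the 5′ part of the gene and sequence upstream of it, and had scaled pileups of 2.44 and 2.54 in LP, against 5.31 and 6.10 in HP. Both HP values exceeded both LP values, with a log2 HP over LP of 1.19 (SE 0.54, limma adjusted p = 0.113), which did not pass. Peaks covered 1449 and 7202 bp of this region in LP and 8591 and 10846 bp in HP.

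The highest distal element of Sox10 lay 28.4 kb upstream (chr15:79191925-79197467), in an intron of Gm10863, a long noncoding RNA gene. Scaled pileups there were 5.76 and 4.49 in LP, against 7.58 and 13.0 in HP, or 66, 69, 87 and 185 fragments, in each library above the gene's own promoter. The log2 HP over LP was 0.96 (SE 0.54, limma adjusted p = 0.165). HP and LP did not overlap, and the element was called in all 4 libraries.

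Both Sox10 clusters lay upstream within Gm10863, which held 6 of the gene's 10 elements. The nearer cluster (chr15:79184311-79203110) had 3 elements from 19.3 to 36.7 kb upstream and the farther one (chr15:79215903-79225604) 3 from 51.0 to 59.5 kb upstream. In each cluster 1 of the 3 elements was called in all 4 libraries. Regions with summits 10.2 and 47.4 kb upstream, also in introns of Gm10863, lay within 3 kb of its starts and so count as other promoters. The one at 47.4 kb had scaled pileups of 3.84 and 2.87 in LP, against 5.66 and 13.8 in HP.

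The Sox10 window is gene-dense. Of its 12 regions called in all 4 libraries, 8 were promoters of other genes, among them Polr2f, Micall1, Eif3l, Ankrd54, Pick1 and Gm10863. One of these passed the test: a region 12.9 kb from the Sox10 5′ end, downstream of the gene and at a start of Polr2f, a subunit of RNA polymerases (chr15:79150487-79153569), with scaled pileups of 1.40 and 1.37 in LP, against 3.40 and 5.96 in HP. The log2 HP over LP was 1.70 (SE 0.54, limma adjusted p = 0.0491), and 0.0623 with the replicate number as a block, where the call was lost.

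Regions called in both HP and no LP library numbered 6 at Sox10. The 3 highest lay 63.1 kb from the 5′ end in intergenic sequence (2.00 and 1.75 in HP), 51.0 kb upstream (1.39 and 1.40) and 6.8 kb into the gene (1.48 and 1.19). All 3 were below the summit of the -28.4 kb element in the same libraries.

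**Figure D1:**
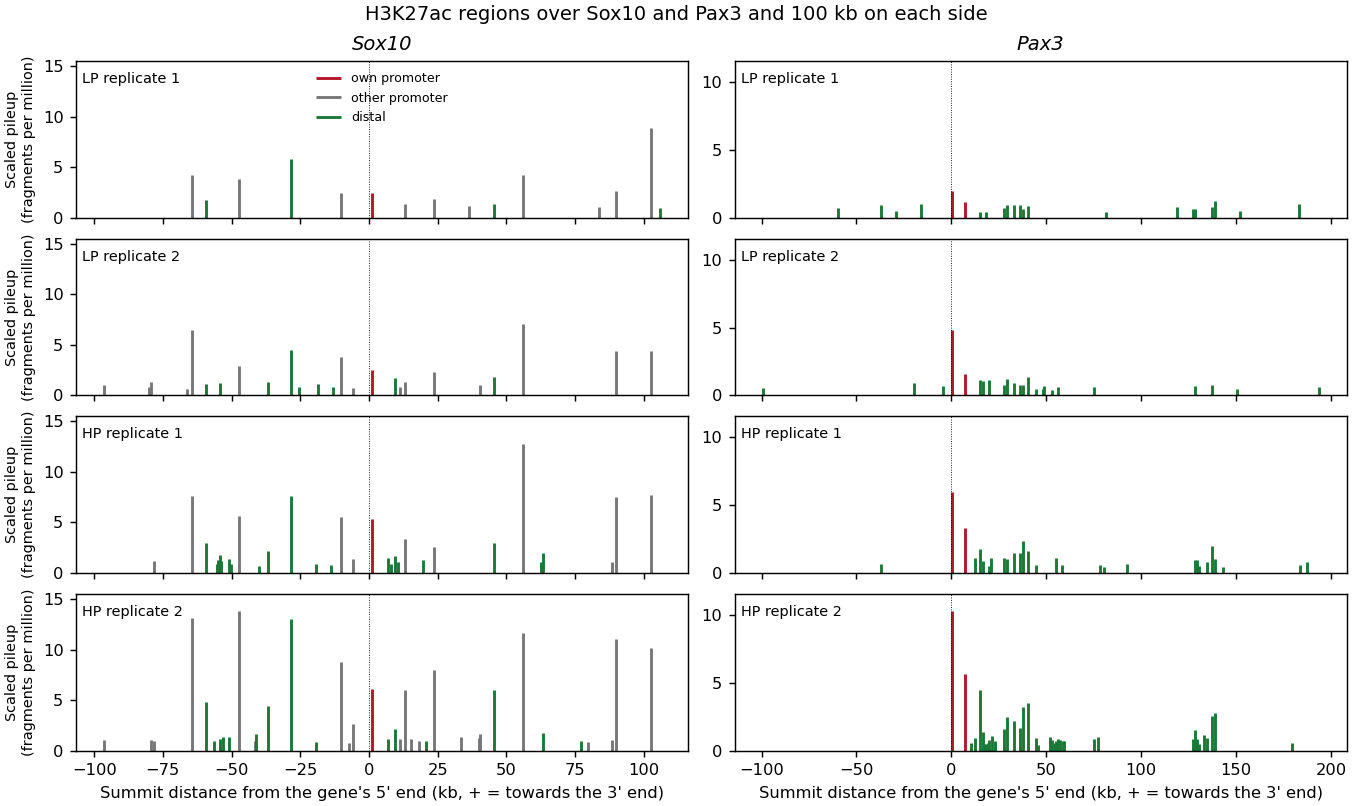
Scaled pileup (fragments per 1000000, y axis) of every region in the Sox10 and Pax3 windows against the distance of its summit from the gene's 5′ end in kb (x axis), 1 row per library, with own promoters in red, other promoters in grey and distal regions in green. The tallest green line at Sox10 is the element 28.4 kb upstream, above the red promoter line in each library, and at Pax3 the red promoter line is the tallest in each library.

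Pax3 (ENSMUSG00000004872.15, chr1:78101267-78197134, minus strand) encodes a paired-domain factor of melanoblasts. Its promoter (chr1:78194796-78198672) was the highest region of the window in every library, with scaled pileups of 2.01 and 4.82 in LP, against 6.01 and 10.3 in HP. The log2 HP over LP was 1.34 (SE 0.54, limma adjusted p = 0.0895). The HP values lay above the LP values, which themselves differed more than at the Sox10 promoter.

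A second Pax3 region counted as its promoter (chr1:78187318-78194222) did pass. It reached to within 3 kb of the gene's 5′ end, while its summit lay 7.1 kb inside the gene, in an intron. It had scaled pileups of 1.13 and 1.56 in LP, against 3.31 and 5.68 in HP, a log2 of 1.70 (SE 0.54, limma adjusted p = 0.0491). With the replicate block its adjusted p was 0.0623 (limma), and the call was lost.

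The longest run of distal elements at the 7 genes lay in the Pax3 introns. It held 12 elements over 44.456 kb (chr1:78141616-78186071), between 12.3 and 55.2 kb from the 5′ end, and runs of 12 or more occurred at 0.0593% of protein-coding genes (13 of 21938). Of the 12 elements 7 were called in all 4 libraries and 2 in both HP and no LP library.

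Among these elements are the only 2 distal ones of the 7 genes that passed the test, the pair printed above. At 15.1 kb into Pax3 (chr1:78181046-78183310), scaled pileups were 0.436 and 1.11 in LP, against 1.74 and 4.49 in HP, a log2 of 2.01 (SE 0.54, limma adjusted p = 0.0358). At 37.6 kb (chr1:78157488-78160383), they were 0.610 and 0.782 in LP, against 2.35 and 3.23 in HP, a log2 of 2.00 (SE 0.54, limma adjusted p = 0.0358). Both had an adjusted p of 0.0492 with the replicate block (limma). Both calls were lost after centring (log2 1.00 and 0.98), after quantile normalization, with the mean summit pileup, and without LP replicate 1, LP replicate 2 or HP replicate 2. With peaks of q-value at most 0.001 neither element was called in all 4 libraries, so neither could be tested. Without HP replicate 2 the first element had a log2 of 1.33. The counts behind them are small, 5 and 17 fragments in LP and 20 and 64 in HP at the first, and 7 and 12 in LP, against 27 and 46 in HP at the second.

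The other 5 elements of the run called in all 4 libraries had log2 values from 0.56 to 1.14, none of which passed. The difference between one element and another was not tested. The 3 highest regions of Pax3 called in both HP and no LP library were also modest, at 12.3 kb (1.13 and 0.912), 55.2 kb (1.13 and 0.702) and 129.7 kb (0.958 and 0.842).

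The second Pax3 cluster lay past the 3′ end of the gene in intergenic sequence (chr1:78057269-78069316), with 6 elements from 128.2 to 138.8 kb from the 5′ end. Of these 2 were called in all 4 libraries and 3 in both HP and no LP library. The 2 called in all 4 libraries had log2 values of 1.54 (limma adjusted p = 0.0624) and 0.88 (adjusted p = 0.194). No distal element was found upstream of Pax3.

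**Figure D2:**
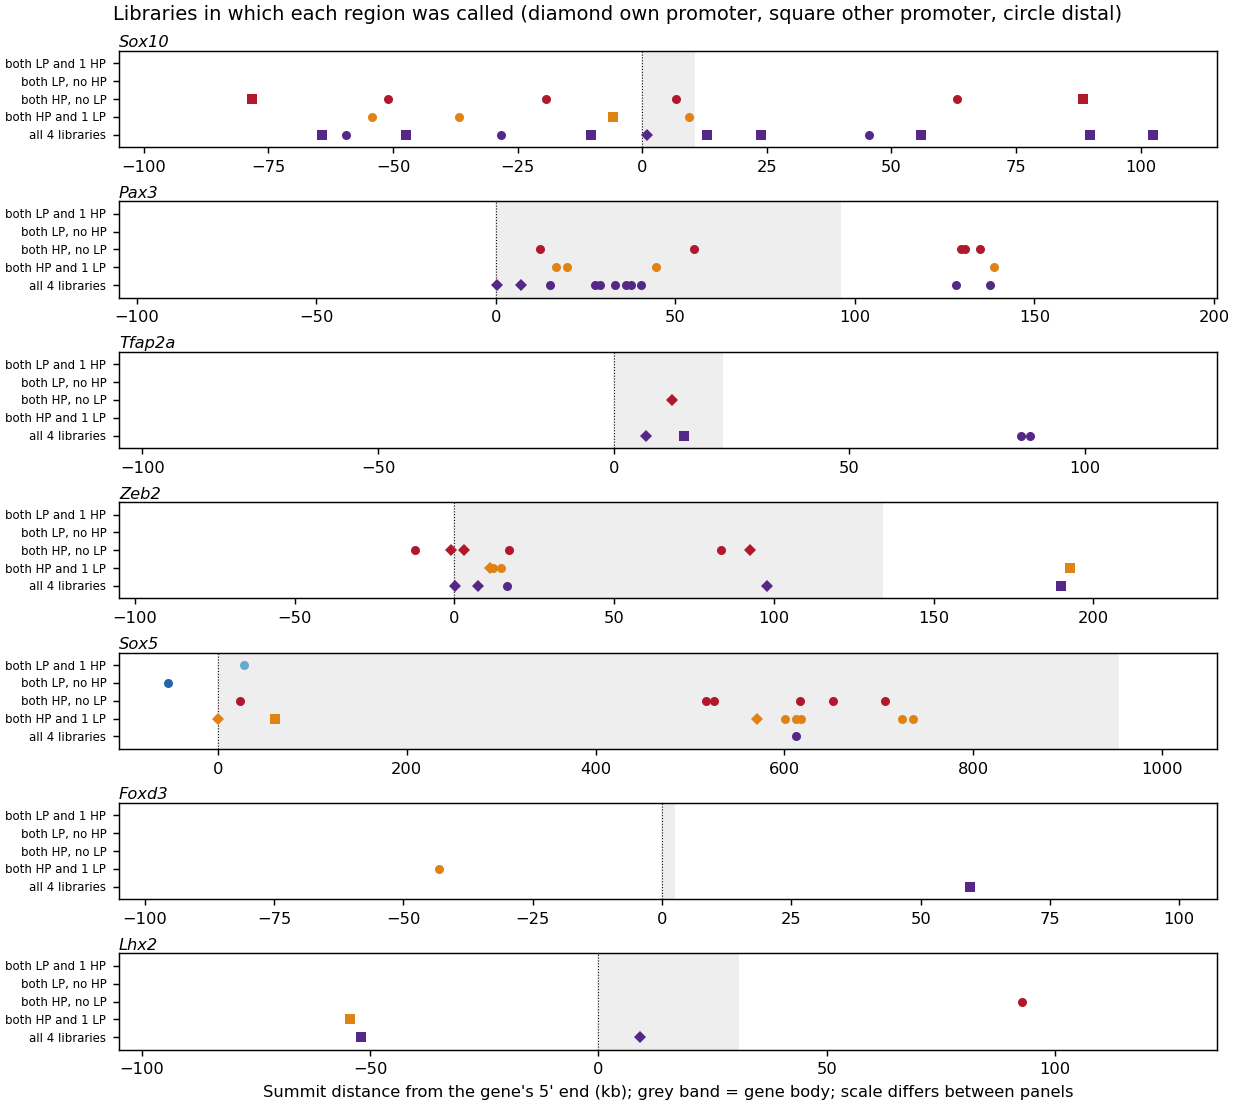
Regions called in both replicates of LP or of HP in each of the 7 windows, by the distance of the summit from the gene's 5′ end in kb (x axis) and the libraries in which they were called (rows), with the gene body as a grey band. Pax3 shows its intronic run and a second group past the gene, Zeb2 a group near its starts, and Foxd3 and Lhx2 few marks.

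Tfap2a (ENSMUSG00000021359.16, chr13:40715302-40738376, minus strand) encodes the AP-2 alpha factor, which binds with MITF at pigment genes. It was marked at the promoter and little elsewhere. Its promoter region (chr13:40727718-40734401), 6.9 kb from the 5′ end and over several of its 9 starts, had scaled pileups of 5.58 and 5.54 in LP, against 6.44 and 12.3 in HP. The log2 was 0.68 (SE 0.54, limma adjusted p = 0.283). It was positive only relative to the fragment totals and turned to -0.33 when each library was centred on its own median.

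The 2 distal elements of Tfap2a lay next to each other in intergenic sequence, 88.4 and 86.5 kb from the 5′ end and past its 3′ end. The first (chr13:40648588-40651019) had scaled pileups of 2.01 and 1.04 in LP, against 3.40 and 3.23 in HP, a log2 of 1.20 (limma adjusted p = 0.112). Both were called in all 4 libraries. The only region of Tfap2a called in both HP and no LP library lay inside the gene at another of its starts (chr13:40725374-40726314), at 0.958 and 0.842.

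Zeb2 (ENSMUSG00000026872.17, chr2:44983632-45117395, minus strand) encodes a zinc-finger E-box factor and has 29 annotated starts. Its 2 strongest regions were among the highest of the 7 genes' own promoters in all 4 libraries. At 7.5 kb from the 5′ end (chr2:45107322-45113396) scaled pileups were 6.80 and 6.12 in LP, against 9.58 and 13.5 in HP, a log2 of 0.82 (SE 0.54, limma adjusted p = 0.219). At 0.3 kb (chr2:45115161-45117882) they were 6.28 and 4.17 in LP, against 10.3 and 13.3 in HP, a log2 of 1.19 (adjusted p = 0.113). HP lay above LP at both, but the first turned to -0.20 when the libraries were centred. A weak region at an internal start, 97.7 kb from the 5′ end, was also called in all 4 libraries (0.785 and 0.651 in LP, 1.22 and 1.82 in HP).

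The Zeb2 cluster had 4 elements in 5.992 kb of intronic and exonic sequence (chr2:45100024-45106015), 12.0 to 17.1 kb from the 5′ end and next to the promoter regions. Only 1 was called in all 4 libraries. The highest in HP, 14.5 kb from the 5′ end (chr2:45102680-45104502), had no peak in LP replicate 1, 0.456 in LP replicate 2, and 2.00 and 2.24 in HP. In LP the element at 16.6 kb was higher, at 0.872 and 0.782. Zeb2 had 6 regions called in both HP and no LP library, the 3 highest of them at 2.9 kb (1.31 and 1.19), 17.1 kb (0.697 and 0.982) and 0.9 kb upstream (0.697 and 0.912).

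**Figure D3:**
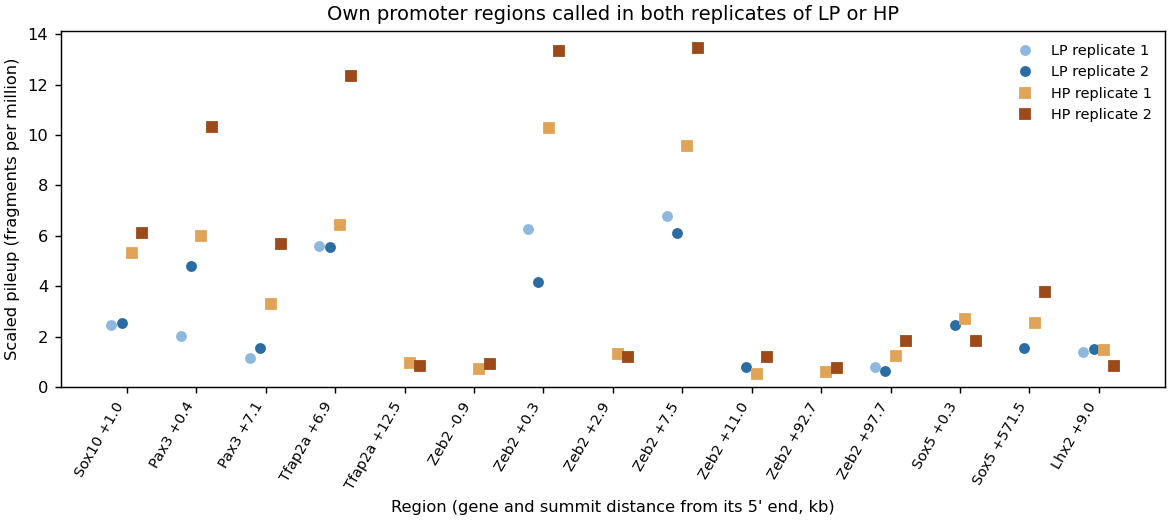
Scaled pileup (fragments per 1000000, y axis) of the own promoter regions called in both replicates of LP or of HP, with 1 point per library (circles LP, squares HP) and no point where a library had no peak. The Zeb2 region at 7.5 kb is the highest in each LP library, and the Lhx2 region at 9.0 kb is the only one called in all 4 libraries with an HP value below both LP values.

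Sox5 (ENSMUSG00000041540.16, chr6:143828425-144781977, minus strand) encodes a SoxD factor without an activation domain. It had 135 regions, the most of the 7 genes, but 112 were called in 1 library and 1 in all 4. The region at its 5′ end (chr6:144781229-144782438) had no peak in LP replicate 1, 2.48 in LP replicate 2, and 2.70 and 1.82 in HP, so HP and LP overlapped there. An internal start 571.5 kb into the gene (chr6:144209000-144210808) had no peak in LP replicate 1, 1.56 in LP replicate 2, and 2.53 and 3.79 in HP.

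Of the 14 elements of Sox5, 13 lay inside the gene and 1 upstream of it. Its cluster held 5 elements over 17.522 kb (chr6:144164373-144181894), 600.7 to 617.5 kb from the 5′ end, of which 1 was called in all 4 libraries. The highest element in HP, at 612.8 kb (chr6:144166131-144169610), had scaled pileups of 2.01 and 1.17 in LP, against 3.22 and 4.28 in HP. Its log2 was 1.28 (SE 0.54, limma adjusted p = 0.0982). Sox5 had 6 regions called in both HP and no LP library, the highest at 517.4 kb (1.31 and 1.40), 525.3 kb (1.48 and 0.772) and 616.3 kb (0.784 and 1.40). It also had the only region of the 7 genes called in both LP and no HP library, 52.9 kb upstream in intergenic sequence (chr6:144834642-144835096), at 0.959 and 0.716.

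Foxd3 (ENSMUSG00000067261.4, chr4:99656299-99658622, plus strand), a forkhead factor with 1 annotated start, had no promoter region called in more than 1 library. A peak of 0.716 in LP replicate 2 alone lay 1.8 kb from the start. Its 1 distal element lay 43.2 kb upstream in intergenic sequence (chr4:99612222-99613267), with no peak in LP replicate 1, 1.11 in LP replicate 2, and 1.04 and 1.54 in HP. The 1 region of the window called in all 4 libraries was the promoter of its neighbour Alg6, a glycosyltransferase gene, at 2.35 and 4.88 in LP, against 4.35 and 11.5 in HP. Of the 23 regions in the window, 21 were called in 1 library, 11 of those in LP replicate 2.

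Lhx2 (ENSMUSG00000000247.11, chr2:38339281-38369733, plus strand) had a peak at its 5′-most start in HP replicate 1 alone (2.09), and one 2.5 kb upstream in LP replicate 2 (1.56) and HP replicate 1 (0.784). The region counted above as its promoter lay at an internal start 9.0 kb into the gene, which is also a start of Gm27197 (chr2:38347886-38348497), and had scaled pileups of 1.40 and 1.50 in LP, against 1.48 and 0.842 in HP. Here alone among the 36 regions called in all 4 libraries the log2 was below 0, at -0.37 (SE 0.54, limma adjusted p = 0.528). It was 0.034 without HP replicate 2. HP replicate 1 lay between the LP values. After centring, the log2 was -1.38, with a limma adjusted p of 0.791 and an unadjusted p of 0.0013. The 1 distal element, 92.7 kb from the start in an intron of Gm13589 (chr2:38431481-38432180), had no LP peak and 0.958 and 2.10 in HP.

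**Figure D4:**
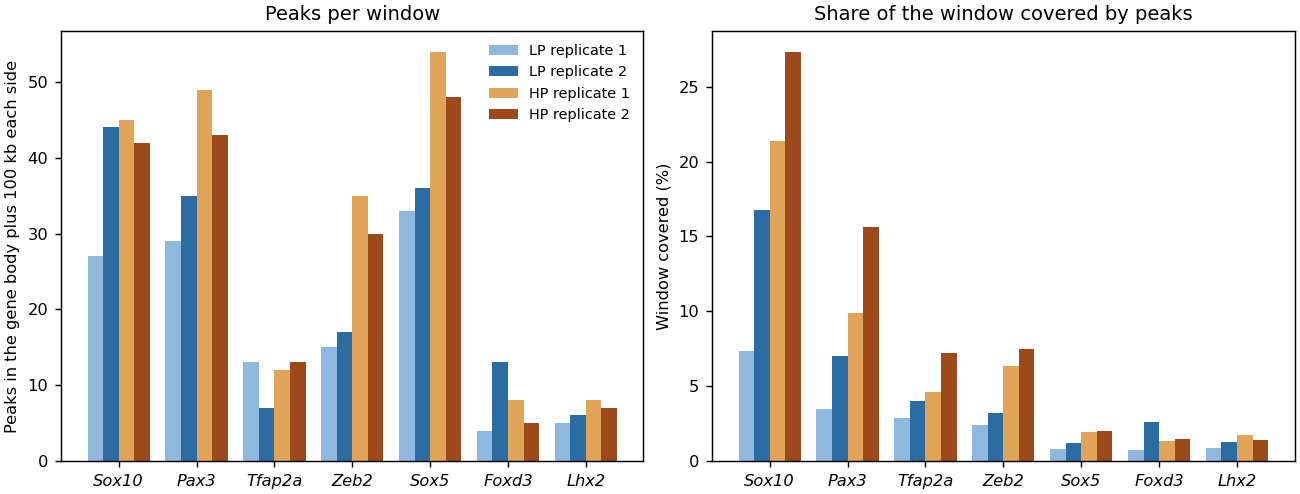
Number of peaks (left) and share of the window covered by peaks in percent (right) for each gene and library, as bars from 0. Sox10 is the most covered window in each library, from 7.33% in LP replicate 1 to 27.3% in HP replicate 2, and on the right both HP bars are above both LP bars for each gene but Foxd3.

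Over the 7 windows together, HP libraries had more peaks and more covered sequence than LP libraries. Peaks numbered 126 and 158 in LP, against 211 and 188 in HP, and they covered 1.98% and 3.69% of the windows in LP and 5.09% and 6.56% in HP. As shares of each library's list they were 0.217% and 0.237% of the peaks in LP and 0.326% and 0.263% in HP, so HP was higher also relative to all peaks called. In covered length the shares were 0.278% and 0.323% in LP and 0.423% and 0.396% in HP. With 2 against 2, an exact permutation test cannot go below a two-sided p of 0.333.

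In covered sequence both HP values were above both LP values at 6 of 7 genes, as at 48.1% of protein-coding gene windows. The gap was wide at Sox10 (15417 and 35251 bp in LP, 44990 and 57522 bp in HP), Pax3 (10278 and 20695 bp, 29285 and 46262 bp) and Zeb2 (8025 and 10669 bp, 21154 and 24978 bp). At Lhx2 it was narrow, with 2046 and 2989 bp in LP, against 4045 and 3282 bp in HP. Foxd3 was the exception, where LP (1455 and 5264 bp) and HP (2675 and 2949 bp) overlapped. No test of a difference between the genes was made.

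In the call patterns, 25 of the 366 regions (6.83%) were called in both HP and no LP library, against 3.94% of all regions, and 1 (0.273%) in both LP and no HP library, against 0.249%. Another 22 (6.01% against 3.62%) were called in both HP libraries and 1 LP library. Of these 18 had their LP peak in replicate 2, as had 5377 of the 6625 such regions of the whole data set. In all 4 libraries 36 were called (9.84% against 6.6%) and in 1 library 261 (71.3% against 81.7%). Among distal elements only, 19 of 52 (36.5%) were called in both HP and no LP library, below the 43.2% of all 10940 distal elements, and 16 (30.8%) in all 4, above their 18.5%. By replicate, 10 regions were called in both replicate 2 libraries only (2.29% of all regions) and 4 in both replicate 1 libraries only (0.433%).

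A missing LP peak is a weak statement at this depth. The 25 regions called in both HP and no LP library had 6 to 23 fragments at the summit in HP replicate 1 (median 11) and 7 to 30 in HP replicate 2 (median 13). Over all peaks called in these libraries the medians were 10 and 12. The lowest of the 25 were close to the smallest pileup of any peak in the whole lists, 5 to 6 fragments. Peaks were called against a background, so how near the others lay to the limit at their own place was not measured. When only replicate 2 was used the count was 114 and with only replicate 1 it was 122. It was 106 without HP replicate 1, 102 without HP replicate 2 and 43 without LP replicate 2. Each of these settings drops a condition of the call pattern, so the count could only rise. The shares of all regions under these settings were not computed.

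The level comparison used the 36 regions called in all 4 libraries, in 1 limma fit over all 12084 such regions. The fit gave every region the same SE, 0.54, pooled over all of these regions. A region's p-value thus follows its log2 alone and does not measure how well its own replicates agreed. By this test 4 of 36 (11.1%) were higher in HP, against 4.01% of all regions, and 0 were lower, against 0%. Those 4 were the 3 Pax3 regions and the region at the Polr2f start, and 20 of 36 had an unadjusted p under 0.05 (55.6% against 36.2%). With the replicate block 2 remained, the Pax3 elements at 15.1 and 37.6 kb (0.728% of all regions). Without LP replicate 1, LP replicate 2 or HP replicate 2 the count was 0, and without HP replicate 1 it was 26, where 57.3% of all regions were called.

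Among regions called in all 4 libraries, nearly all at the 7 genes had higher pileups in HP, as had nearly all in the genome. These are 6.6% of all regions, and the levels of the others were not compared. The log2 HP over LP was above 0 at 35 of 36 (97.2% against 99%), and both HP values exceeded both LP values at 31 (86.1% against 74.8%). The median log2 of the 36 was 1.16, beside 0.92 over all regions, 0.76 beside 0.57 in replicate 1 and 1.35 beside 1.30 in replicate 2. The 95% interval of a single region's log2 is its value ± 1.06, and at 33 of the 36 it took in the median of all regions. The 3 outside it were the Pax3 elements at 15.1 and 37.6 kb, above, and the Lhx2 region, below.

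The comparison changed once this shift was taken out. With each library centred on its median log2 pileup, 22 of 36 were above 0 (61.1% against 41.5%), the median was 0.15 beside -0.09 over all regions, and 0 passed limma, as over all regions, with 3 at an unadjusted p under 0.05 (3.74% of all regions). The 16 distal members had a median log2 of 1.16, beside 1.06 over 2020 distal regions, with 2 called (8.56% of distal regions) and 15 of 16 without overlap (93.8% against 78.5%). The 8 own promoter regions had a median of 1.13 and the 12 other promoters 1.16. In sorted bulk cells, a mark in more cells and more of it per cell cannot be told apart.

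**Figure D5:**
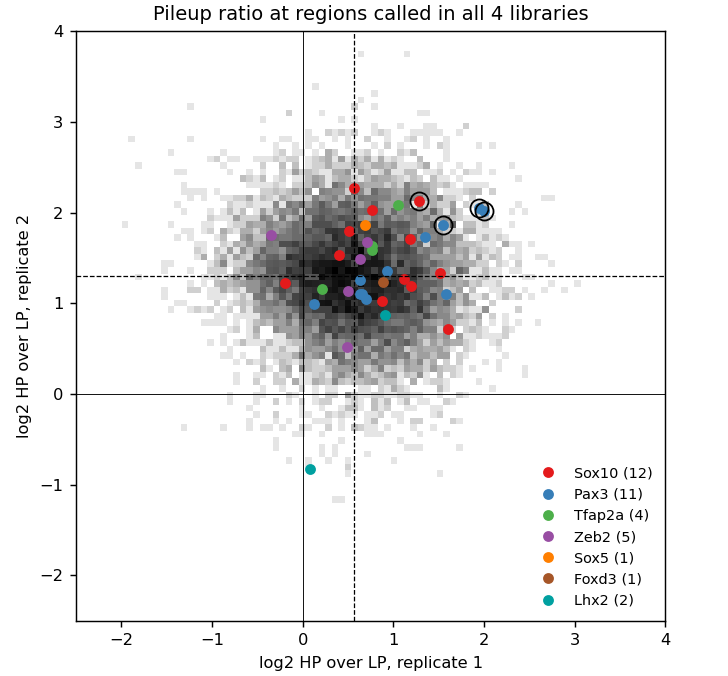
Log2 HP over LP of scaled pileup in replicate 1 (x axis) and replicate 2 (y axis) for regions called in all 4 libraries, with the 36 regions at the 7 genes as coloured points, all 12084 as a grey density and their medians (0.57 and 1.30) as dashed lines. The 4 circled regions passed the limma test, and the Lhx2 point below the horizontal axis is the region 9.0 kb into that gene.

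By gene, the median log2 of regions called in all 4 libraries was 1.19 at Sox10 (12 regions, 0.51 to 1.70), 1.14 at Pax3 (11 regions, 0.56 to 2.01), 1.19 at Tfap2a (4 regions) and 0.82 at Zeb2 (5 regions). Sox5, Foxd3 and Lhx2 had 1, 1 and 2 such regions. After centring these medians were 0.18 at Sox10, 0.13 at Pax3, 0.18 at Tfap2a and -0.20 at Zeb2. The error of a median was not estimated, so whether any of them departs from 0 was not tested.

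The 4 members with a cluster (Sox10, Pax3, Zeb2 and Sox5) compare with 10.1% of protein-coding gene windows that have at least 1, and the 2 with 2 clusters (Sox10 and Pax3) with 1.36%. These counts are not corrected for window length, and the Sox5 window spans 1153553 bp. On the marker lists above, clusters lay at 3 of 6 melanocyte, 1 of 3 endothelial and 1 of 4 keratinocyte genes. No fibroblast or immune gene listed had one. The endothelial gene was Pecam1, with 12 distal elements (4.05 per 100 kb) and 2 clusters, beside 22 (5.31 per 100 kb) and 2 at Mitf. In all, 33 of the 52 elements (63.5%) lay in 6 clusters. Elements were mostly inside the member genes, 32 of 52, with 13 at Sox5, 12 at Pax3, 5 at Zeb2 and 2 at Sox10, and 12 were intergenic.

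Another 20 factors of the lineage and the neural crest were listed as a further reference. Among these genes 8 had a promoter region called in both replicates of LP or HP (Mitf, Sox9, Sox8, Sox6, Snai2, Lhx9, Ets1 and Id3), 5 in all 4 libraries, and 0 passed limma between HP and LP, with a median log2 of 0.83. By the same measure of 1 main promoter per gene, 0 of 5 members passed, with a median of 0.82. The other 12 had none, among them the relatives Pax7, Tfap2b, Tfap2c, Tfap2e, Zeb1, Sox13 and Foxd1, and also Snai1, Twist1, Msx1, Msx2 and Lef1. Clusters lay in 4 of the 20 windows, with 2 at Mitf, 2 at Ets1 and 1 each at Sox6 and Snai1, and the longest run, 19 elements, at Ets1, was longer than that of Pax3.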

How the data were processed

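The authors trimmed reads with Trimmomatic 0.33 and fastp, aligned them to mm10 with Bowtie2 2.5.1 and called peaks in each library with MACS 3.0.0b1 (paired-end mode, all duplicates kept, q-value cutoff 0.05) against unsorted-cell IgG of the same replicate number. The deposited lists give for each peak its pileup, a coverage signal checked here to be unscaled fragments at the summit, −log10 p-value and q-value, fold enrichment ratio and a score. Pileups were divided by library fragments and multiplied by 1000000. Peaks overlapping by at least 1 bp were merged over the 4 lists, and genes and starts were taken from GENCODE on mm10. The 12084 regions with a peak in every library were fitted as log2 scaled pileups with limma 3.58.1 (R 4.3.3) without a replicate block, adjusted by Benjamini-Hochberg over all of them. Per the labels the libraries of a replicate were prepared as 1 set, from equal DNA amounts, which is the pairing used for the block, although replicate differences of LP and HP did not move together (correlation 0.0153). The 7 genes, the lists and the tests were chosen with earlier results of these data known. Regions named per gene were the main promoter, those passing the test, the distal element with the highest mean scaled pileup in HP, and the largest cluster. Also named per gene were up to 3 regions called in both HP and no LP library, and those called in both LP and no HP library. In the list of other lineage factors, genes without a promoter region were named, and 1 marker list is not reported here. Other regions named were chosen after their values were seen.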

Additional observations from a re-analysis of the deposited data

How the results depend on the processing

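The 4 calls between HP and LP were the result most open to the processing. The count was 2 with the replicate block, and 0 after centring the libraries on their medians, after quantile normalization, with the mean summit pileup and with peaks of q-value at most 0.001 (of 32 regions). At an unadjusted p under 0.05 limma had 3, 3, 13 and 19 regions in those last 4. Leaving out 1 library gave 0 to 26, the 26 without HP replicate 1. Of the regions named, Tfap2a +6.9 kb turned to -0.33 when centred and -0.20 after quantile normalization, Zeb2 +7.5 kb to -0.20 and -0.014, and Lhx2 +9.0 kb ranged from -0.78 to 0.034 with 1 library left out, the latter without HP replicate 2. The cause was not tested. Regions called in both HP and no LP library numbered 25, and 29 to 122 when a replicate or a single library was left out, the single libraries being an alternative chosen after seeing the data. Leaving libraries out drops a condition of the pattern, so these counts could only rise. Such regions numbered 24 at the stricter q-value, 20 in windows of 50 kb and 23 when peaks had to share more of their length. Clusters numbered 6, and 19 and 21 with replicate 2 or replicate 1 alone, where elements rest on single lists. Regions in all 4 libraries and own promoters stayed within 1.5 times their counts. Depth limits absence: a region without a peak may still hold fragments. Peaks were called by q-value against background, so the smallest pileup in the lists, 5 to 6, is not a limit that holds for each region.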
